A study of Homo sapiens with 4 samples.

Results

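The superoxide dismutases, catalase and the glutathione peroxidases are the enzymes that take superoxide to hydrogen peroxide and hydrogen peroxide or lipid peroxides to water or alcohols. The set described here was chosen by gene symbol and holds 10 genes of the 43622 in each table: SOD1, SOD2, SOD3, CAT, GPX1, GPX2, GPX3, GPX4, GPX7 and GPX8. All 10 were found, once each, and 8 passed the filter on low counts. SOD3 and GPX7 did not pass it.

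Messenger RNA came from 4 libraries of A549 and H1993 cells, human lung cancer lines that the labels call lung epithelial, each grown adherent and as spheroids. The labels give no genotype, treatment or culture time. The study's design ties spheroid culture to cancer stem cells and its title ties triacylglycerol metabolism to resistance to reactive oxygen species, so the question here is how the genes of peroxide and superoxide removal stood in either culture. Each line and culture is 1 library, so differences between libraries have no replicates behind them and pairs of libraries get no p-value, and all intervals below are 95% intervals that cover counting error only. In these bulk samples fewer cells of a type and less RNA per cell cannot be told apart.

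The libraries held 15331121 to 17681746 reads in exons, and 3 reads, the floor taken for a count of 0, correspond to between 0.172 and 0.196 CPM (read counts scaled to a common library size). The library labelled H1993 adherent went against its label. It lay at least 2-fold from A549 adherent cells in 10.4% of 14759 autosomal genes, and from H1993 spheroids in 32.6%. Pearson's r across these genes, which are not independent replicates, was 0.958 and 0.855. A549 adherent cells and A549 spheroids were at least 2-fold apart in 20.3% of these genes. Whether the line label is right was not tested, since line and culture cannot be told apart in these comparisons. Every H1993 culture difference below is therefore that of the libraries as labelled. The H1993 spheroids are also set against A549 spheroids, which does not use the library labelled H1993 adherent. All 8 epithelial markers (EPCAM, CDH1, keratins and claudins) had at least 10 reads in each library, with summed levels of 4210 to 12090 CPM. Of 10 lung epithelial markers 3 to 6 were at 0 per library, SFTPA1, SFTPA2 and SCGB1A1 in every library, and their sum was between 3.79 and 6.03 CPM. Summed markers of fibroblasts, endothelium and blood cells stayed between 18.9 and 51.7, 0.88 and 8.0, and 21.1 and 95.4 CPM. Blood cell markers were at 21.1 CPM in A549 adherent cells and 95.4 CPM in A549 spheroids, and at 44.4 and 74.8 CPM in the H1993 pair as labelled. Most of each sum came from 1 gene, CD68, at 16.3, 89.8, 32.0 and 68.7 CPM in the same order. PTPRC, which defines white blood cells, had 45 reads in H1993 spheroids and 0 in the other libraries, and CD3E had 1 and 0. Whether blood cells were present or bore on the results was not tested.

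Superoxide dismutases turn superoxide into hydrogen peroxide in the cytosol (SOD1, which binds copper and zinc), in mitochondria (SOD2, which binds manganese) and outside the cell (SOD3). Catalase breaks down hydrogen peroxide in peroxisomes, and glutathione peroxidases reduce peroxides at the expense of glutathione. Of the latter GPX1, GPX2, GPX3 and GPX4 carry selenocysteine, whereas GPX7 and GPX8 carry cysteine and work in the endoplasmic reticulum, and GPX4 acts on lipid peroxides in membranes and restrains ferroptosis. GPX2 is an epithelial enzyme best known from the gut and is a known target of NRF2, the transcription factor (gene NFE2L2) that binds antioxidant response elements.

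The 4 glutathione peroxidase genes that varied most in level over the libraries were GPX2, GPX8, GPX3 and GPX1, so the 250 bases before their RefSeq starts (GRCh38.p14) are shown. Capitals mark matches, on either strand, to the antioxidant response element core TGACNNNGC, the GC box GGGCGG, the CCAAT box CCAAT or the TATA box TATAAA. The windows are chr14:64942746-64942995 (minus strand) for GPX2, chr5:55159921-55160170 (plus strand) for GPX8, chr5:151020341-151020590 (plus strand) for GPX3 and chr3:49358354-49358603 (minus strand) for GPX1. They lie before RefSeq starts, but each reaches into the deposited model of its gene. That of GPX1 lies almost wholly within it.
GPX2: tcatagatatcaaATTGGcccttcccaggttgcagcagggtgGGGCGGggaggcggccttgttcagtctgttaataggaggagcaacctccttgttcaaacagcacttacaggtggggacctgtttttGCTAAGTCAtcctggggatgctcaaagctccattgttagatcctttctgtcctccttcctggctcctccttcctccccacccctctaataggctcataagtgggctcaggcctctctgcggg
GPX8: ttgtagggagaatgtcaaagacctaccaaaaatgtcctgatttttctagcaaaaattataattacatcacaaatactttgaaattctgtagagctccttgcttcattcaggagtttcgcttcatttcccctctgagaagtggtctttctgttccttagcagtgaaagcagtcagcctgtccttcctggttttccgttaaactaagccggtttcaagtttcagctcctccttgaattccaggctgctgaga
GPX3: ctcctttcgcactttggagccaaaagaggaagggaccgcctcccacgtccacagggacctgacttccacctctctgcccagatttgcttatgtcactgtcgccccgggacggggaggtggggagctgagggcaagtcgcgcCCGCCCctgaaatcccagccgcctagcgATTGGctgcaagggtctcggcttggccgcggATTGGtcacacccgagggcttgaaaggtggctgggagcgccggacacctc
GPX1: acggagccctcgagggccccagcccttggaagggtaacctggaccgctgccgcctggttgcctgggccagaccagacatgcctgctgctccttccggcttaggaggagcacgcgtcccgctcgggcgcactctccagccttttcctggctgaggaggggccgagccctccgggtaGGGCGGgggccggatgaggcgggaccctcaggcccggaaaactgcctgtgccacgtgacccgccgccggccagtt
Among the members, the antioxidant response element core was matched in GPX2 only (TGACTTAGC on the opposite strand, 122 to 114 bases before the start). That match lies within the deposited gene model of GPX2. The RefSeq table held 14 promoters of 300 bases (250 before and 50 after a start) for 9 of the 10 members (all but SOD1), and this core was in 1 of the 14. It was in 13.3% of all 35116 promoters of that length. The GC box was in 12 of the 14 (45.0% of all promoters), the CCAAT box in 8 (34.6%) and the TATA box in 0 (11.5%). The 14 include 4 of SOD2 and 3 of GPX4, some of them overlapping, so the same match can count more than once. By gene, 7 of the 9 members had a GC box and 6 a CCAAT box in at least 1 promoter. The 4 motifs did not overlap each other in the printed windows, and GPX8 had a match to none of them. A match is a description of the letters, and binding was not measured.

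GPX2 (ENSG00000176153, chr14:64939152-64942905, hg38) had the widest range. Reads numbered 5656 in adherent A549, 14781 in spheroid A549, 274 for the library labelled H1993 adherent and 33 for spheroid H1993. In TPM (the deposited transcript level, which is per exon length) these were 820, 1900, 35.8 and 5.16. Both A549 libraries were thus far above both libraries labelled H1993, and A549 spheroids were the highest of all. GPX2 ranked 44 by TPM among the 21104 genes with a read in A549 spheroids and 117 of 20687 in A549 adherent cells, but 3979 of 21182 in the library labelled H1993 adherent and 11286 of 21325 in H1993 spheroids. Its log2 fold of spheroid over adherent was 1.32 (1.28 to 1.37) in A549 and -2.80 (-3.44 to -2.35) in H1993 as labelled. Between the spheroid libraries it was 413-fold lower in H1993 (294 to 600), and between the adherent libraries 22.6-fold lower (20.0 to 25.6) in the one labelled H1993. Reads across exon junctions made up 8.03% to 9.09% of its exonic reads in the 4 libraries, the latter from 3 of 33 reads in H1993 spheroids. The locus is overlapped on the other strand by CHURC1, with 1007 to 1752 reads per library, and whether counting used strand is not stated.

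**Figure D1:**
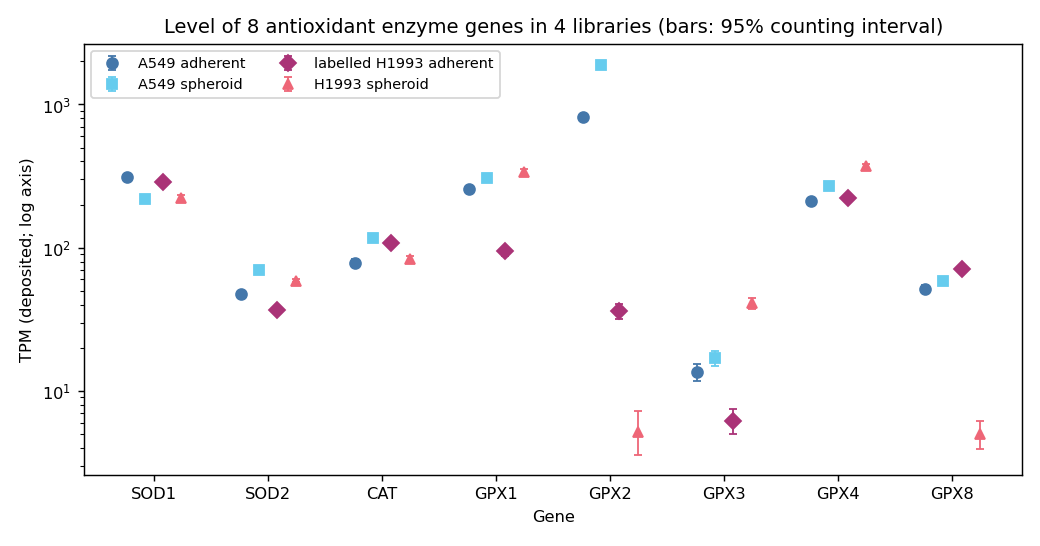
Deposited TPM (log axis) of the 8 members that passed the filter, by gene, with 1 point per library and bars for the counting interval. GPX2 spans 5.16 to 1900 TPM, GPX8 is lowest in H1993 spheroids at 4.97 TPM, and the libraries lie closest together for SOD1, CAT, GPX4 and SOD2.

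GPX8 (ENSG00000164294, chr5:55160118-55167071) was the other member over 10-fold lower in H1993 spheroids than in A549 spheroids. It had 915 reads in adherent A549, 1175 in spheroid A549, 1407 for the library labelled H1993 adherent and 82 for spheroid H1993, or 51.4, 58.5, 71.3 and 4.97 TPM. Its log2 fold of spheroid over adherent was 0.30 (0.17 to 0.42) in A549 and -3.89 (-4.26 to -3.60) in H1993 as labelled, a level of 6.62% of that library. Against A549 spheroids H1993 spheroids were at -3.69 (-4.06 to -3.40), while the library labelled H1993 adherent stood 0.49 (0.37 to 0.61) above A549 adherent cells. So for GPX8 the low library was H1993 spheroids alone, whereas GPX2 was low in both libraries labelled H1993. GPX7, its closest relative in the endoplasmic reticulum, had 0 reads in 3 libraries and 1 read in A549 spheroids, under the floor of 3 reads in every library, and no fold is given.

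GPX1, GPX3 and GPX4 lay higher in both spheroid libraries than in both adherent ones. GPX3 (chr5:151020438-151028993), the secreted plasma enzyme, had 196 reads in adherent A549, 277 in spheroid A549, 99 for the library labelled H1993 adherent and 552 for spheroid H1993. H1993 spheroids were the highest library and the one labelled H1993 adherent the lowest. Its log2 fold of spheroid over adherent was 0.43 (0.17 to 0.71) in A549 and 2.64 (2.35 to 2.99) in H1993 as labelled, and H1993 spheroids stood 1.11 (0.90 to 1.33) above A549 spheroids.

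GPX1 (chr3:49357176-49358600), the ubiquitous cytosolic enzyme, had 1680, 2269, 686 and 2068 reads in the same order of libraries. The library labelled H1993 adherent stood apart at 39.4 CPM, against 106 CPM in A549 adherent cells, and the spheroid libraries were level at 137 CPM in A549 and 135 CPM in H1993. Spheroid over adherent was thus 0.37 (0.28 to 0.46) in A549 and 1.77 (1.65 to 1.90) in H1993 as labelled, but H1993 over A549 spheroids was -0.02 (-0.10 to 0.07), the only 1 of the 8 members whose interval there held no change (0.07 with library size alone and 0.15 by the ratio of TPM). The H1993 culture fold of GPX1 thus uses its 1 low library, the one labelled H1993 adherent. The interval between the spheroid libraries reached at most 1.07-fold.

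GPX4 (chr19:1103926-1106791) varied least among the glutathione peroxidases that passed the filter. It had 1968, 2827, 2299 and 3207 reads in the same order, with both spheroid libraries above both adherent ones (170 and 209 CPM against 124 and 132 CPM). Spheroid over adherent was 0.46 (0.38 to 0.54) in A549 and 0.66 (0.59 to 0.74) in H1993 as labelled, both under 2-fold.

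In sum over the family, the glutathione peroxidase transcripts came to 1353 TPM in adherent A549, 2552 in spheroid A549, 431 for the library labelled H1993 adherent and 763 for spheroid H1993. GPX2 made up 60.6% and 74.4% of this in the A549 libraries, 8.32% for the library labelled H1993 adherent and 0.68% for spheroid H1993. In H1993 spheroids GPX4 at 48.8% and GPX1 at 44.6% made up nearly all of it. Without GPX2 the sums lay closer together, at 533, 652, 395 and 758 TPM, and H1993 spheroids were then the highest library. GPX8 took 16.5% of the family in the library labelled H1993 adherent but 0.65% in H1993 spheroids. These are sums of transcripts per length, not of enzyme.

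**Figure D2:**
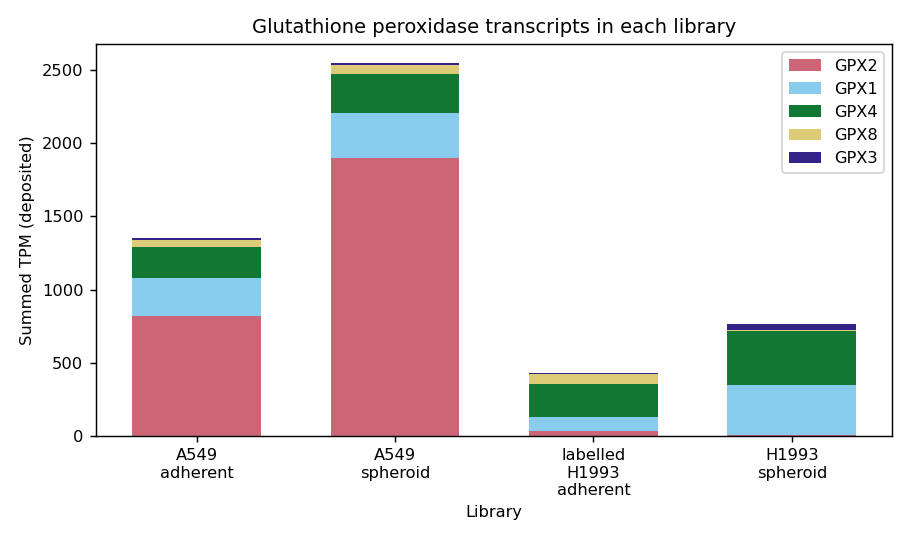
Summed deposited TPM of the glutathione peroxidase genes in each library, stacked by gene (GPX7, at most 0.11 TPM, is not drawn). GPX2 fills 820 of 1353 TPM in A549 adherent cells and 1900 of 2552 in A549 spheroids, and the H1993 spheroid bar consists mainly of GPX1 and GPX4.

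SOD2 and SOD1 differed between cultures in opposite directions, and in both lines. SOD2 (ENSG00000112096, chr6:159669057-159762529) had 4119 reads in adherent A549, 6827 in spheroid A549, 3535 for the library labelled H1993 adherent and 4761 for spheroid H1993. Both spheroid libraries lay above both adherent ones, at 411 and 311 against 259 and 203 CPM. The log2 folds were 0.67 (0.61 to 0.72) in A549 and 0.61 (0.55 to 0.68) in H1993 as labelled. SOD1 (ENSG00000142168, chr21:31659622-31668931) had 2887, 2297, 2955 and 1922 reads in the same order, and here both spheroid libraries lay below both adherent ones, at 138 and 125 against 181 and 170 CPM. Its log2 folds were -0.39 (-0.47 to -0.31) and -0.44 (-0.52 to -0.35). All of these were under 2-fold. With library-size scaling alone the SOD1 folds were -0.50 and -0.50 and the SOD2 folds 0.55 and 0.54.

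The share of SOD2 in the summed TPM of the superoxide dismutases was 13.2% in A549 adherent cells and 24.0% in A549 spheroids, and 11.3% and 20.8% in the libraries labelled H1993. SOD2 stood below SOD1 in TPM in all 4 libraries although it had more reads in all 4. The files give SOD2 an exon length of 18985 bases, against 1425 to 3868 for the other members, and its TPM depends on that length. WTAP and ACAT2 overlap SOD2 on the other strand, with 907 to 1059 and 709 to 1513 reads per library. SOD3, the extracellular enzyme, had 0 reads in both A549 libraries, 2 for the library labelled H1993 adherent and 12 for spheroid H1993. H1993 spheroids were at 6.81 times the level of the library labelled H1993 adherent (1.52 to 62.7), from 2 and 12 reads. They were at least 4.34-fold higher than A549 spheroids with that library set at 3 reads, and the counting interval of the 0 and 12 reads reaches down to 3.01-fold.

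CAT (ENSG00000121691, chr11:34438925-34472062) had 1205 reads in adherent A549, 2026 in spheroid A549, 1835 for the library labelled H1993 adherent and 1188 for spheroid H1993. Its levels of 75.7, 122, 105 and 77.5 CPM did not separate the cultures: A549 spheroids and the library labelled H1993 adherent were high, and the counting intervals of the other two overlapped. Spheroid over adherent was 0.69 (0.58 to 0.79) in A549 and -0.44 (-0.55 to -0.34) in H1993 as labelled. H1993 over A549 spheroids was -0.65 (-0.76 to -0.55). CAT had the largest share of intronic reads among the members, 7.87% to 10.1% of gene reads, against 0% for GPX1, whose exons cover its whole gene model in these files.

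By order of TPM, GPX2 came first in both A549 libraries, SOD1 in the library labelled H1993 adherent and GPX4 in H1993 spheroids. Of the neighbours in these orders, the counting intervals overlapped for GPX8 and SOD2 in A549 adherent cells, SOD2 and GPX2 in the library labelled H1993 adherent, and GPX2 and GPX8 in H1993 spheroids, and for no other neighbours among the members that passed the filter.

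A gene was counted as higher or lower where its fold was at least 2 and its counting interval excluded no change. In A549 1 of the 8 members, GPX2, was higher in spheroids and 0 were lower, against 12.4% and 10.3% of the 15273 genes tested. In H1993 as labelled GPX1 and GPX3 were higher and GPX2 and GPX8 lower, 4 of 8 in either direction (35.0% of all genes) and 2 each way, against 17.0% and 18.0% of all genes. The median log2 fold of the 8 was 0.45 in A549 and 0.09 in H1993, and that of all genes was 0.00 in both. Between spheroids, H1993 against A549, GPX3 was higher and GPX2 and GPX8 lower, 3 of 8 (37.1% of all genes), against 18.0% and 19.1% of all genes. Between the libraries labelled adherent GPX1, GPX2 and GPX3 were lower in the one labelled H1993 and 0 were higher, against 5.49% and 6.95% of all genes. The A549 pair and the H1993 pair share no library. Of the 8 members 4 (SOD2, GPX1, GPX3 and GPX4) lay higher in spheroids in both pairs and 1 (SOD1) lower in both. Of the 15273 genes 4223 lay higher in both and 4276 lower in both. The other 3 members (CAT, GPX2 and GPX8) lay in opposite directions, or 37.5%, against 44.2% of all genes. This last share and the counts past 2-fold in the culture pairs lie near the background. With 8 members no more can be read from them, nor from the 4 members that lay higher in both.

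**Figure D3:**
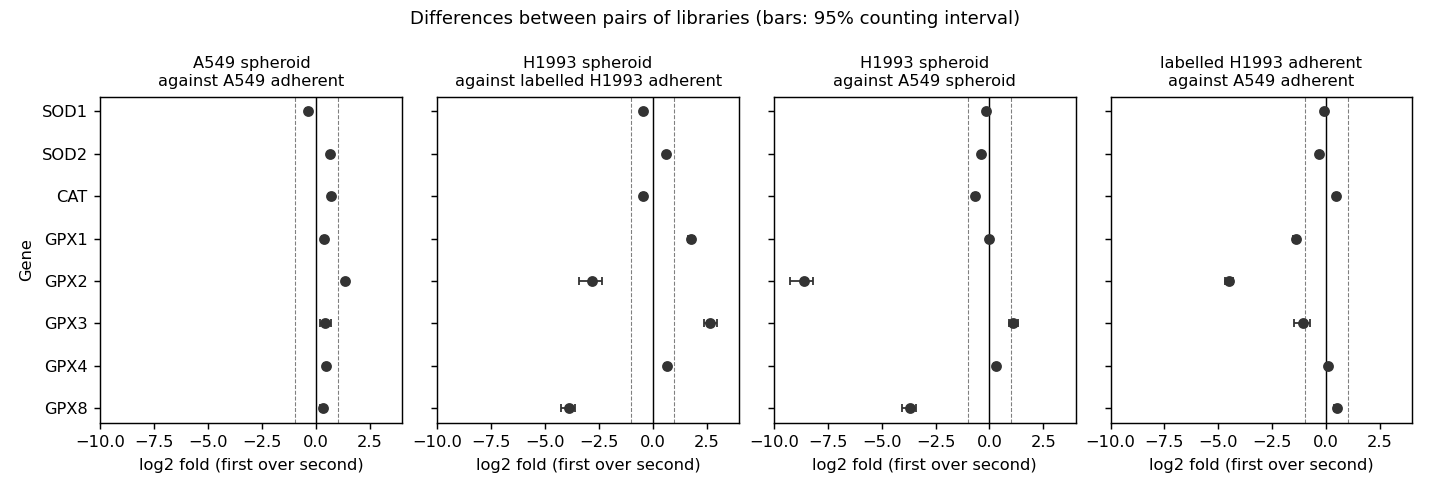
Log2 folds of the 8 members (points) with counting intervals (bars) in 4 pairs of libraries, with dashed lines at 2-fold. In A549 only GPX2, at 1.32, passes 2-fold, and between spheroids GPX2 lies at -8.61 and GPX8 at -3.69.

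A fit of culture over both lines, with line as a term, has 1 residual degree of freedom. It uses the library labelled H1993 adherent, whose line label was not tested. By edgeR's quasi-likelihood test with Benjamini-Hochberg adjustment it called 0 of the 8 members and 0 of 15273 genes (0.00%), and 1258 genes (8.24%) had an unadjusted p under 0.05. The member of lowest p was GPX1, with a log2 change of 1.07, an unadjusted p of 0.0852 and an adjusted p of 0.67, higher in 2 of 2 spheroid libraries. GPX3 stood at 1.54 (adjusted p = 0.68 in the same edgeR fit), also higher in 2 of 2. DESeq2 called 591 genes (4.03% of those it tested) and 0 members. Its lowest adjusted p among them was 0.32, for GPX8 at an unadjusted p of 0.0321, and GPX3 was at an unadjusted p of 0.0349. Leaving out the library labelled H1993 adherent leaves no residual degree of freedom, and the A549 pair then stands alone.

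On the log2 scale 6 of the 8 members put the library labelled H1993 adherent nearer to adherent A549 than to H1993 spheroids. Over all autosomal genes that library also lay nearer to adherent A549, at least 2-fold apart in 10.4%, against 32.6% from H1993 spheroids. The share of all genes nearer to either was not counted, so the 6 of 8 is not read as a result about the members. CAT was nearly as far from either, at 0.48 and 0.44. GPX2 was the other exception, 4.49 below A549 adherent cells and 2.80 above H1993 spheroids. Its CPM in that library was 4.43% of the A549 adherent level.

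For the 3 members of widest range, the 5 genes of most similar profile were taken by Euclidean distance of centred log2 CPM over the 4 libraries, among 10344 genes with a mean of at least 10 CPM. TM4SF20, a membrane protein, was nearest to GPX2 at 0.71, with 1332, 3023, 33 and 6 reads in A549 adherent, A549 spheroid, labelled H1993 adherent and H1993 spheroid. It was followed by CYP4F11, a fatty acid hydroxylase, at 1.09, the noncoding CASC19 at 1.13, FGG, a fibrinogen chain, at 1.55 and CPLX2, a complexin, at 1.66. FGG and CPLX2 were high in both A549 libraries, like GPX2, but CYP4F11 and CPLX2 did not share its highest level in A549 spheroids (CPLX2 stood at 1129 CPM adherent and 797 spheroid). Nearest to GPX8 were AC105052.3 at 0.29, SDK2 at 0.35, ANO5 at 0.38, SNPH at 0.48 and the kinase LRRK2 at 0.48. All 5 had their lowest level in H1993 spheroids, between 0.85 and 2.68 CPM. Nearest to GPX3 were the nucleotide receptor P2RY2 at 0.22, MARVELD2, a tricellular junction protein, at 0.31, the heat shock gene HSPA1A at 0.33, ALS2CL at 0.35 and PXDC1 at 0.37. HSPA1A has a near-identical copy, HSPA1B, and may share reads with it. These likenesses over 4 libraries are descriptions.

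**Figure D4:**
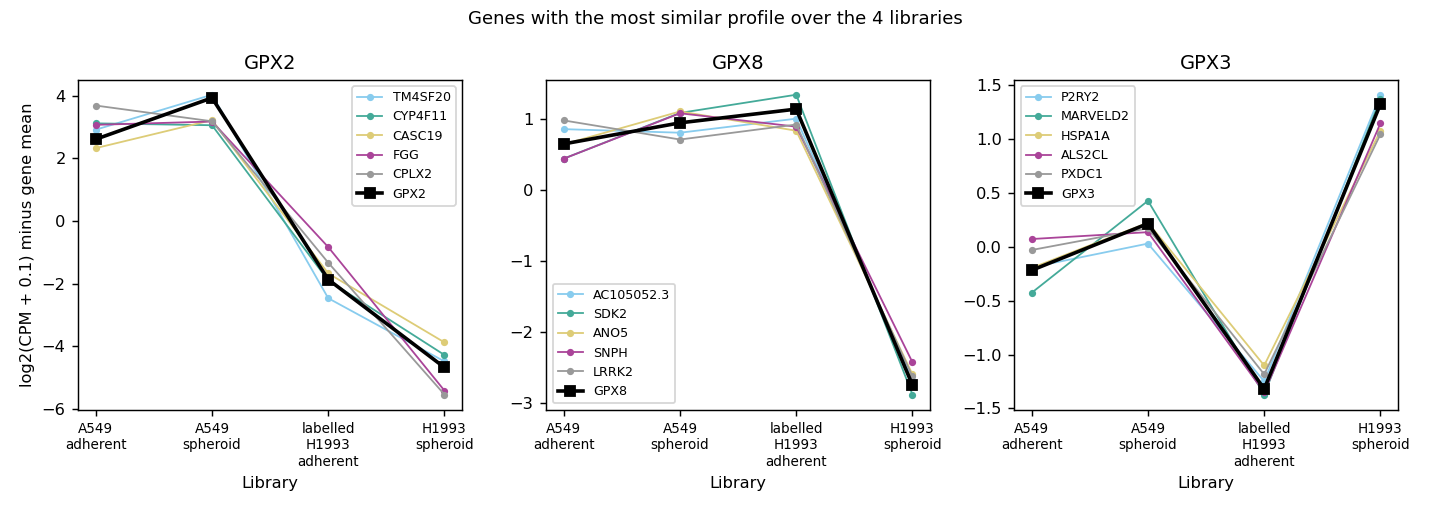
Profiles of GPX2, GPX8 and GPX3 (black) and of the 5 nearest genes to each (colours) over the 4 libraries, as log2(CPM + 0.1) minus the gene's mean. The GPX2 group is high in both A549 libraries, the GPX8 group drops in H1993 spheroids only, and the GPX3 group is lowest in the library labelled H1993 adherent.

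The genes that serve these enzymes were taken as 8 lists of 94 genes. Their counts stand against 12.4% of all genes higher and 10.3% lower in A549, and 17.0% and 18.0% in H1993 as labelled. Of the other glutathione peroxidases, GPX5 and GPX6 had 0 reads in all 4 libraries. The list on metal delivery to the dismutases and on peroxisomal import held no gene at least 2-fold apart in A549 (0 of 13, median 0.17). In H1993 as labelled 1 was higher and 1 lower. These were PEX7, a peroxisomal import receptor, at 1.10 (0.80 to 1.42) and ATP7A, a copper pump, at -1.24 (-1.45 to -1.05). CCS, the chaperone that loads copper into SOD1, was at 0.67 (0.45 to 0.89) in A549 and -0.91 (-1.17 to -0.67) in H1993, and the copper importer SLC31A1 at 0.91 and 0.99.

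Genes of selenoprotein synthesis, on which GPX1 to GPX4 depend, were mostly under 2-fold (11 of 13 in A549 and 9 of 13 in H1993). SECISBP2, which binds the selenocysteine signal, was at 0.47 (0.34 to 0.61) and 0.73 (0.59 to 0.87). SELENOP, the secreted selenium carrier, had 23 reads in adherent A549, 518 in spheroid A549, 190 for the library labelled H1993 adherent and 76 for spheroid H1993. Its log2 fold was 4.32 (3.83 to 5.10) in A549, the widest of the list there, and -1.12 (-1.54 to -0.75) in H1993. SCLY, which frees selenium from selenocysteine, was at -1.31 in A549 but at -0.58, under 2-fold, when only uniquely placed exon reads were counted. SEPSECS, the last enzyme of selenocysteine synthesis, was at 1.33 in H1993.

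Glutathione supply and recycling had 2 of 10 genes higher and 1 lower in A549, where 12.4% and 10.3% of all genes were, and 0 higher and 4 lower in H1993 as labelled, where 17.0% and 18.0% were (medians -0.20 and -0.94). GSR, which regenerates the glutathione that these peroxidases spend, was at -0.72 (-0.78 to -0.65) and -1.56 (-1.64 to -1.47). GCLC, the catalytic subunit of the first step of glutathione synthesis, was at 0.05 and -2.08 (-2.21 to -1.95). GCLM, the other subunit of that enzyme, was at -0.84 in A549 and 0.41 in H1993 as labelled. GLRX, a glutaredoxin, was at 2.23 (2.15 to 2.31) in A549 and -0.58 in H1993, and SLC3A2, a subunit of the cystine importer, at -1.75 and -0.98. Of the peroxiredoxins and thioredoxins, the other peroxide-removing system, 1 of 12 was higher and 1 lower in A549 and 2 were higher and 3 lower in H1993. TXNRD1 lay at -1.55 and -1.57, and PRDX2, with 2 and 20 reads in the A549 pair and 66 and 1653 in the H1993 pair, at 4.79 (4.47 to 5.21) in the latter.

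Of the sources of superoxide and hydrogen peroxide 5 of the 7 genes that passed the filter were higher in A549 spheroids and 0 lower (12.4% and 10.3% of all genes), and in H1993 1 was higher and 2 lower (17.0% and 18.0%). The other 10 of the 17 did not pass, among them NOXO1, a partner of NOX1, with 1, 3, 5 and 66 reads in the order of libraries above (chosen after its values were seen). The 5 included XDH, xanthine dehydrogenase, at 2.44 (2.12 to 2.84) and NOX1, a superoxide-making oxidase, at 2.53 (1.88 to 3.56) from 15 and 100 reads. In H1993 XDH was at -1.97, from 33 and 6 reads, and CYBA, a subunit of the NADPH oxidases, at -2.47. Around GPX4, ACSL4, which supplies the lipids that peroxidise in ferroptosis, was at 2.09 and 0.72, the ferritin chain FTL at 0.14 and -2.07, and the transferrin receptor TFRC at -1.02 and -2.05. That list had 3 of 12 higher and 2 lower in A549, and 2 higher and 4 lower in H1993.

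Among the regulators NFE2L2 was at -0.20 (-0.30 to -0.09) in A549 and -0.38 (-0.50 to -0.26) in H1993 as labelled, and its inhibitor KEAP1 at -0.43 and 0.63. BACH1, a repressor at antioxidant response elements, was at 2.29 (2.13 to 2.47) and 0.57. FOXO3, a known activator of SOD2 and CAT, was higher in spheroids of both lines at 1.06 (0.89 to 1.24) and 1.27 (1.11 to 1.45), and FOXO4 at 2.55 and 1.02, whereas RELA was at 0.28 and -0.08. With library-size scaling alone FOXO3 in A549 and FOXO4 in H1993 were just under 2-fold, at 0.95 and 0.96. In this list 4 of 13 genes were higher and 1 lower in each line, against 12.4% and 10.3% of all genes in A549 and 17.0% and 18.0% in H1993.

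**Figure D5:**
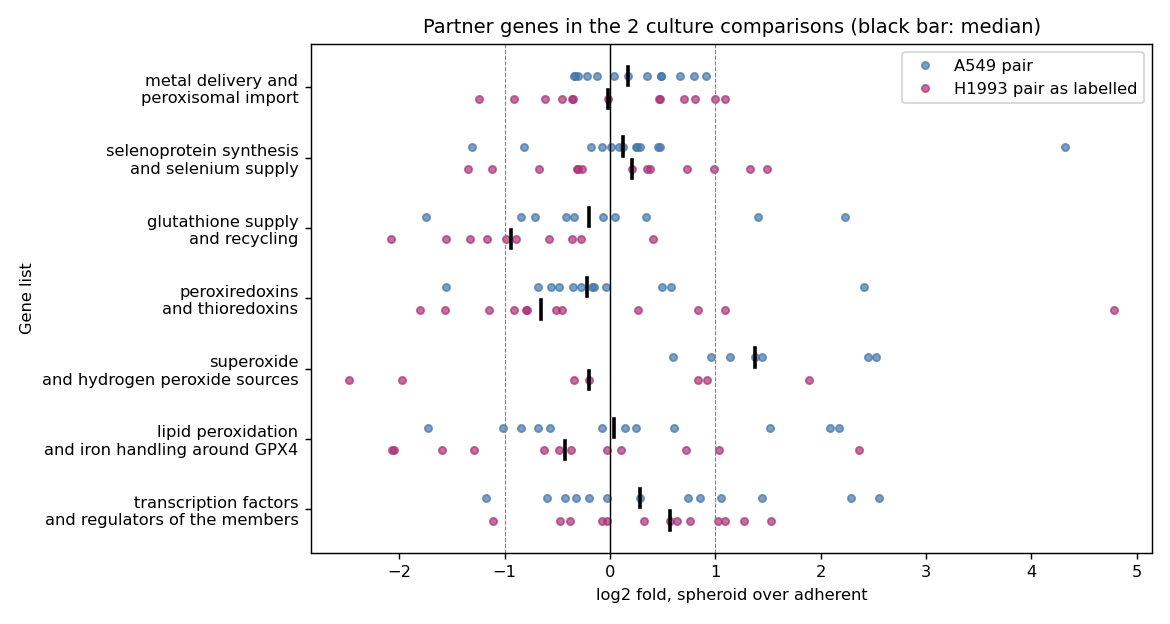
Log2 fold of spheroid over adherent for the partner genes that passed the filter, by list (points are genes, black bars medians, dashed lines 2-fold). In the A549 pair the sources of superoxide and hydrogen peroxide have a median of 1.37, and in the H1993 pair as labelled glutathione supply and recycling has a median of -0.94.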

How the data were processed

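Per the labels' protocols, each library was made from total RNA with a stranded mRNA kit and limited PCR. Per the submitters' processing notes the build was hg38; the aligner and counter were not given in the sources used here, nor were annotation and use of strand. Whole-number read counts per gene, TPM and RPKM per exon length were deposited by the authors for each library (per the file headers). RPKM entered no comparison.

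Groups are the labelled line and culture. Total exon counts were filtered with edgeR 4.0.16 filterByExpr (15273 genes) and scaled by TMM. CPM use these scaled sizes. A prior count of 2 went into log2 folds. Their Clopper-Pearson intervals come from the 2 counts, so they compare libraries, not conditions. Intervals of levels are exact Poisson. All cover counting error only, since only read counts enter them. PCR copies of a molecule are not independent, so the intervals can be too narrow even for counting error. The fit over both lines used edgeR's glmQLFit and glmQLFTest, with DESeq2 1.42.0 as the alternative. Of these steps, the edgeR fit was also run on simulated counts, and the outcome is not given here. Members and lists were chosen with earlier results of these data known. Named were all members, up to 3 widest genes of each list and pair (at least 100 reads), 8 fixed genes and the 5 genes most like each of 3 members. Alternatives were other scalings, filters, prior counts, unique reads, no mitochondrial genes and TPM ratios.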

Additional observations from a re-analysis of the deposited data

Results flagged for a closer look

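The 2 lines differed in direction for 3 of the 8 members, each with counting intervals that excluded no change in both pairs. Of the 8611 genes with such intervals in both pairs, 3508 (40.7%) differed in direction, against 37.5% of the members. The count of members thus lies near the background. CAT had a log2 fold of spheroid over adherent of 0.69 in A549 and -0.44 in H1993 as labelled. GPX2 was at 1.32 and -2.80. GPX8 was at 0.30 and -3.89. With 1 library per line and culture these differences were not tested, and the library labelled H1993 adherent enters each H1993 value. Between the spheroid libraries, which do not include it, all 3 genes were lower in H1993. That comparison reuses the spheroid libraries by which the 3 genes were picked, so it is no separate support. SOD1, SOD2 and GPX1 were also lower in H1993 there, at -0.14, -0.40 and -0.02, the last with an interval that held no change. GPX3 and GPX4 were higher, at 1.11 and 0.30.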

How the results depend on the processing

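No paired analysis was possible because the labels give no replicate numbers to pair by. The fit over both lines has line as a term, which sets the cultures against each other within each line. Of 204 alternative values for 34 member folds, 181 stayed within the main counting interval and 3 had the other sign, all between spheroids: SOD1 went from -0.14 to 0.025 with the ratio of deposited TPM, and GPX1 from -0.02 to 0.15 with that ratio and to 0.07 with library size alone. In the fit over both lines, GPX2 went from -0.69 to 1.26 with no term for line, and the cause of either was not tested. With no filter on low counts, 2 members in place of 1 were higher in H1993 than in A549 spheroids, since SOD3 was then counted, and in H1993 as labelled 3 in place of 2 were higher and the members' median was 0.61 in place of 0.09. The same setting called 173 genes in the fit over both lines, where edgeR with the filter called 0, and DESeq2 called 591. Scaling by library size alone moved the median log2 fold of all genes in A549 from 0.00 to -0.11. A single library per group sets the limit here: SOD3 (12 reads at most) did not pass the filter, GPX7 (1 read at most) allows no fold, and the spread between cultures of one kind is not known.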
